A study of Mus musculus with 4 samples.

Results

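Solute carriers (Slc genes) are the membrane proteins that move ions, sugars, amino acids, nucleotides, metals, vitamins and drugs across plasma, vesicle and mitochondrial membranes without hydrolysing ATP themselves. The genes described here are those with a symbol starting with Slc that reached a log2 level of 7.4 on at least 1 of the 4 arrays. That rule took 139 of the 362 Slc genes read by a probe set with exactly 1 gene symbol, out of 18193 genes in all. A gene with several probe sets was read from the one with the highest mean over the 4 arrays. Another 3 Slc genes reached the level, Slc26a7, Slc4a2 and Slc40a1, and were left out by name, as were Slc26a9, Slc7a11, Slc11a2 and Slc18a2. The members were thus chosen by their measured levels on these arrays, so the height of a level is no finding. A gene that entered through only 1 array had to differ between arrays. Of the 139, 111 were at 7.4 or above on all 4 arrays and 28 on some of them, 9 of these below 7.4 in vehicle. Just inside were Slc1a3, Slc23a3 and Slc25a40, with highest levels of 7.45, 7.47 and 7.48, and just outside Slc41a1, Slc27a1 and Slc25a30, at 7.39, 7.38 and 7.38.

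The arrays measured RNA from the epithelium of the gastric corpus, the acid-secreting part of the stomach. All mice were wild type and 6 weeks old, of the C57BL/6, BALB/c and FVB/N strains. Which strains or sexes a given array holds is not stated in the labels. Tamoxifen, a selective estrogen receptor modulator, was given into the peritoneum at 5 mg per 20 g of body weight in 90% sunflower seed oil and 10% ethanol, for 1 or 3 days (not assigned to arrays), with the purpose of bringing on spasmolytic polypeptide-expressing metaplasia. The 4 groups were vehicle, taken at 2.5 days, and tamoxifen taken at 12 hours, at 2.5 days or at 4.5 days. Each was a single array of RNA pooled from 3 mice, which leaves no measure of the spread between mice and allows no test. The vehicle array served all 3 comparisons, and anything particular to that pool enters each of them.

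In the corpus gland, solute carriers work beside the proton pump of the parietal cell. Basolateral exchangers export bicarbonate and import chloride, cation-chloride cotransporters and sodium-proton exchangers set cell volume and pH, and the mitochondria that fill parietal cells exchange ADP, phosphate and substrates through family 25 carriers. Cells that secrete glycoprotein need nucleotide sugar carriers in the Golgi, and dividing cells draw on amino acid, folate and phosphate carriers. Many carriers are obligate pairs or need a chaperone, such as Slc3a2 for light chains of family 7 and basigin or embigin for monocarboxylate transporters.

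Values are log2 RMA levels, and differences are on the log2 scale, where 1 is 2-fold. Array medians lay between 5.30 and 5.34. The 18 hybridisation controls differed between tamoxifen and vehicle arrays with an SD of 0.08 to 0.10 around their mean difference. The arrays at 2.5 and 4.5 days were closest, with a robust SD of differences of 0.13 over the 7893 genes that met the same level rule, against 0.27, 0.36 and 0.40 for the 3 comparisons with vehicle in order of time. The defining parietal genes Atp4a and Atp4b were at 13.38 and 14.19 in vehicle. Markers of other tissues were present too, such as Actg2 of smooth muscle at 12.42. The 6 measured enterocyte markers ranged in vehicle from Fabp2 at 10.11 to Lct at 4.38, and 5 lay above the array median. Of 8 squamous markers 7 were at least 2-fold lower at 12 hours, with a summed log2 level of 40.07 against 72.65 in vehicle, 70.88 at 2.5 days and 71.15 at 4.5 days. Of 8 measured pancreatic acinar markers 7 were at least 2-fold higher at 12 hours, with summed levels of 99.85 against 49.13, 47.35 and 45.61. The part of these tissues in the 12-hour values of the carriers was not tested. In such bulk RNA, fewer cells of a type and less RNA per cell cannot be told apart.

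Most solute carriers stayed near vehicle. Those past 2-fold lay almost all below it, several of them by the entry rule, as given below. At a fold of 1.5, members lay on both sides, with 4, 8 and 13 higher and 16, 13 and 16 lower. The share over all genes at that fold was not computed. At 12 hours no member was at least 2-fold higher, where 1.1% of the 7893 genes were, and 6 (4.32%) were at least 2-fold lower, where 2.13% were. At 2.5 days 1 member (0.719%) was higher, against 3.59% of the 7893, and 6 (4.32%) were lower, against 2.37%. At 4.5 days 1 (0.719%) was higher, against 4.14%, and 7 (5.04%) lower, against 3.33%. Among the lower ones, Slc7a8, Slc26a6, Slc25a23 and Slco3a1 reached the entry level in vehicle alone, so the rule fixed their direction. The higher one, Slc16a6, reached it on the tamoxifen arrays but not in vehicle, so its direction was fixed as well. The median differences of the members were -0.09, -0.09 and -0.13 at the 3 times, beside -0.05, 0.05 and 0.02 over the 7893 genes. The hybridisation controls had mean differences of 0.04, -0.13 and -0.16. After subtracting the median of the 7893 genes, the members' medians were -0.05, -0.14 and -0.14. Within 0.5 of vehicle in either direction were 116, 110 and 101 of the 139 (83.5%, 79.1% and 72.7%), against 87.3%, 78.1% and 73.9% of the 7893. Of the members, 58 were read by 1 probe set. For the 63 to 65 with several above the array median, the differences given by these probe sets spanned a median of 0.21 to 0.23 and at most 0.92, for Slc25a36 at 4.5 days.

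**Figure D1:**
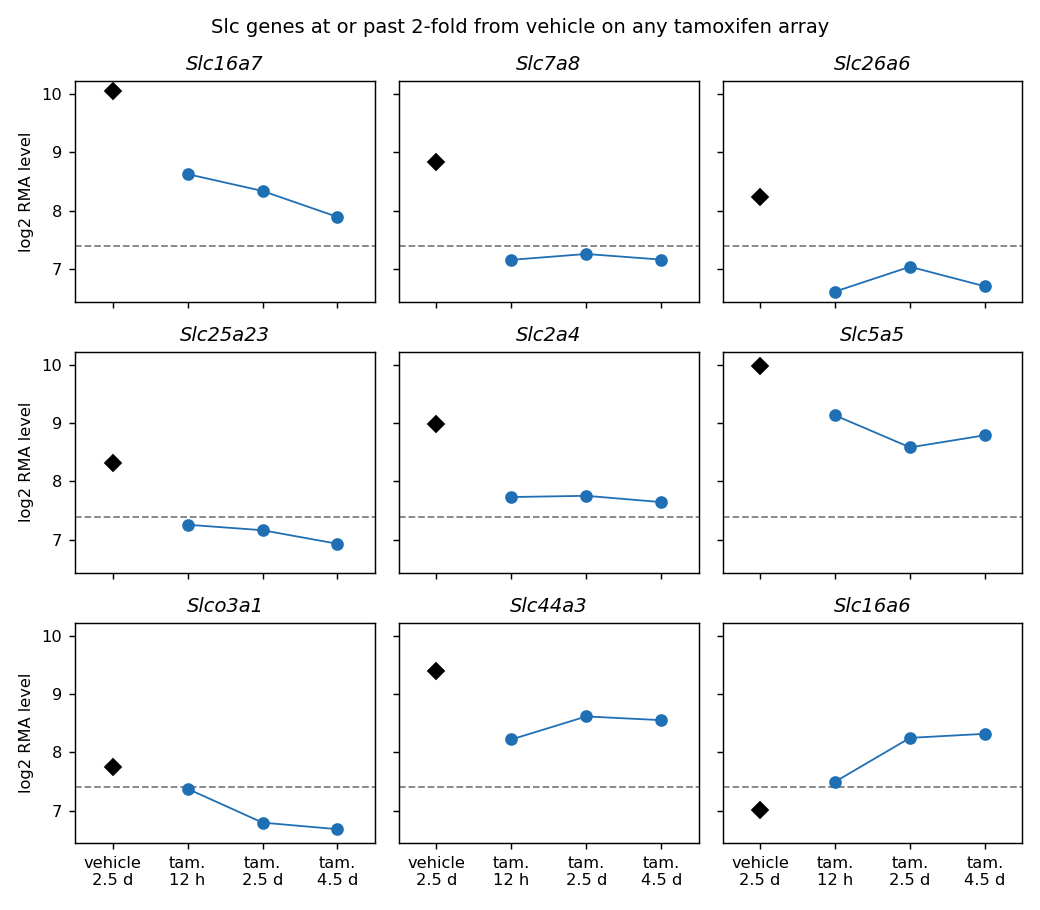
Log2 RMA level (vertical axis) of each Slc gene at or past 2-fold from vehicle on any tamoxifen array, with vehicle as a black diamond and the tamoxifen arrays as blue circles joined by a line. The dashed line is the level of 7.4, each point is 1 array of pooled RNA without replicates, and Slc16a6 is the gene whose tamoxifen points lie above its vehicle point.

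Slc16a7 encodes MCT2, a monocarboxylate transporter with high affinity for pyruvate and lactate. Its level was 10.05 in vehicle and 8.62, 8.34 and 7.89 on the tamoxifen arrays, given here and below in order of time. The vehicle array was thus the highest and the 4.5-day array the lowest, with differences of -1.42, -1.71 and -2.16, a 4.46-fold lower level at the last time. Slc16a6, which encodes MCT7 of the same family, stood on the opposite side. It was at 7.01 in vehicle, below the entry level, and at 7.50, 8.25 and 8.32 after tamoxifen, with differences of 0.48, 1.24 and 1.30. It was the 1 member past 2-fold above vehicle at 2.5 and at 4.5 days. It entered through the tamoxifen arrays, so it could only be higher after tamoxifen. Each of these 2 genes was read by 1 probe set.

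The other members of family 16 lay between them. Slc16a1, encoding the widespread lactate and pyruvate transporter MCT1, was at 10.32 in vehicle and 10.51, 10.88 and 10.94 after tamoxifen. Its values on the last 2 arrays were 0.56 and 0.63 above vehicle, within 2-fold. Slc16a5 (MCT6) was at 8.13 in vehicle and 7.90, 7.59 and 7.59 after it, differences of -0.23, -0.53 and -0.53. The family's median was close to 0 at each time, at -0.02, 0.01 and 0.05, since its members lay on both sides. Of the chaperones that carry these transporters to the membrane, embigin (Emb) differed by 0.07, 1.38 and 1.29, from 6.08 in vehicle to 7.46 at 2.5 days. Basigin (Bsg), at 11.67 in vehicle, differed by -0.16, -0.47 and -0.52. Of 12 listed carrier partners 10 were measured. Past 2-fold were 1 lower at 12 hours, 1 higher at 2.5 days, and 1 higher and 1 lower at 4.5 days. The higher one was Emb. The lower one was Cltrn, a partner of amino acid transporters of family 6, which was under the array median on all 4 arrays, at 5.19 in vehicle and 4.06, 4.64 and 3.60 after tamoxifen. Such list counts include dim genes, unlike the shares of the 7893, which were 2.13% lower at 12 hours, 3.59% higher at 2.5 days, and 4.14% higher and 3.33% lower at 4.5 days.

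Slc7a8 encodes LAT2, a light chain that exchanges neutral amino acids. Its single probe set was at 8.83 in vehicle and 7.16, 7.26 and 7.16 after tamoxifen. The 3 tamoxifen arrays lay within 0.10 of each other and at least 1.57 below vehicle, with differences of -1.67, -1.57 and -1.67. It reached the entry level on the vehicle array alone, so it could only be lower after tamoxifen. Slc7a5, which encodes the related light chain LAT1, was at 8.28 in vehicle and 8.61, 8.80 and 9.15 after it, so its differences of 0.33, 0.52 and 0.87 had the opposite sign and did not reach 2-fold. The heavy chain gene that both light chains share, Slc3a2, differed by 0.31, -0.14 and -0.28 from a level of 9.96.

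Slc26a6 encodes an exchanger of chloride for bicarbonate and oxalate. It was at 8.23 in vehicle and 6.61, 7.04 and 6.70 after tamoxifen, differences of -1.62, -1.19 and -1.53. The tamoxifen arrays were all below the entry level. Slc26a2, the sulfate transporter of that family, stayed at -0.13, 0.02 and 0.21 from a vehicle level of 9.89.

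Slc5a5 encodes the sodium-iodide symporter, which also concentrates iodide in gastric mucosa. It was at 9.98 in vehicle and 9.13, 8.58 and 8.79 after tamoxifen, with differences of -0.84, -1.39 and -1.19. It was past 2-fold on the later arrays but not at 12 hours. A dimmer probe set of the gene gave -0.08, -0.50 and -0.31, below 2-fold at all 3 times.

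Slc2a4 encodes GLUT4, the insulin-responsive glucose transporter best known from muscle and fat. It was at 8.98 in vehicle and 7.73, 7.75 and 7.65 on the tamoxifen arrays, which lay close together and 1.25, 1.23 and 1.33 below vehicle. Its other probe set, at 6.97 in vehicle, gave -0.56, -0.78 and -0.80. All 5 smooth muscle markers were measured, and none was past 2-fold at any time. Their summed level was 59.73 in vehicle and 57.50, 56.10 and 56.40 after tamoxifen. Of 3 adipocyte markers 2 were measured, with summed levels of 14.34, 14.04, 13.54 and 13.59. They went opposite ways, Adipoq by -0.76, -1.07 and -1.05 and Cidec by 0.46, 0.26 and 0.30. Their part in the Slc2a4 values was not tested.

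Slc25a23 and Slc25a24 encode calcium-regulated carriers that exchange ATP-magnesium for phosphate across the inner mitochondrial membrane. Slc25a23 was at 8.32 in vehicle and 7.26, 7.16 and 6.93 after tamoxifen, differences of -1.06, -1.16 and -1.39. It reached the entry level on the vehicle array alone, so it could only be lower after tamoxifen. Slc25a24 was at 9.63 in vehicle and 10.06, 10.32 and 10.48 after it, differences of 0.43, 0.69 and 0.85 in the other direction and within 2-fold. Its second probe set gave 0.67, 0.85 and 1.03.

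Slc44a3, of the choline transporter-like family, was past 2-fold at 12 hours alone. Its level was 9.40 in vehicle and 8.22, 8.62 and 8.55 after tamoxifen, and the differences were -1.18, -0.79 and -0.85. Slco3a1, an organic anion transporter gene, was past 2-fold at 4.5 days alone by the probe set used, with levels of 7.74 in vehicle and 7.38, 6.80 and 6.68 after tamoxifen. It reached the entry level on the vehicle array alone, so it could only be lower after tamoxifen. Its differences were -0.37, -0.95 and -1.06. Both of its other probe sets were near these values, at -0.57, -1.21 and -1.14 and at -0.34, -0.81 and -1.05. Whether the times differ from each other was not tested for either gene.

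Markers of parietal cells were lower too. All 5 on the list were measured, with a summed level of 58.01 in vehicle and 49.50, 50.30 and 52.65 after tamoxifen, and 3, 4 and 4 of them were at least 2-fold lower at the 3 times. Atp4a differed by -0.66, -1.34 and -1.10. Chief cell markers, 4 of 4 measured, had sums of 47.10 in vehicle and 44.56, 40.10 and 36.91 after tamoxifen. Surface mucous markers, 4 of 4, stayed at 57.83, 57.91, 57.57 and 57.61. The part of these cell types in the carrier values was not tested.

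Promoter sequence was at hand for 109 of the 139 members, from RefSeq on build GRCm38.p6, as 142 windows. The 250 bases before the start were searched on both strands for AAGGTCA (an extended nuclear receptor half-site), CACGTG (the E-box bound by Myc and related factors, its own reverse complement) and TGATGNAA (the core of the amino acid response element), none of which contains another. None of the 3 stood in the windows of the 5 genes past 2-fold that have one, Slc26a6, Slc7a8, Slc25a23, Slc44a3 and Slc5a5. No match says only that these letters are not in this window. The first 3 of these genes are shown because they were lower by 2-fold at each time, and Slc16a1, Slc20a1 and Slc12a7 because they hold the E-box, in capitals, and lay on both sides of vehicle. Slc20a1 and Slc12a7 each have another window, not shown, without it.
Slc26a6, chr9:108853793-108854042, plus strand: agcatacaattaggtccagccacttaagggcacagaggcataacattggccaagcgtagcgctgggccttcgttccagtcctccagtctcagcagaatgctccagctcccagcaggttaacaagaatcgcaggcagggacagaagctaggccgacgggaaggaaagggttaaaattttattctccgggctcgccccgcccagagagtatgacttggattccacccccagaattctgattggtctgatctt
Slc7a8, chr14:54781887-54782136, minus strand: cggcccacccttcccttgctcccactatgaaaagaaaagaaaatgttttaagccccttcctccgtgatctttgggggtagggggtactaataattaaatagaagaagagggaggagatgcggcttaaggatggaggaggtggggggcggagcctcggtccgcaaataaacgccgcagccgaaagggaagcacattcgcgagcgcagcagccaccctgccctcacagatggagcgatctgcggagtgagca
Slc25a23, chr17:57059864-57060113, minus strand: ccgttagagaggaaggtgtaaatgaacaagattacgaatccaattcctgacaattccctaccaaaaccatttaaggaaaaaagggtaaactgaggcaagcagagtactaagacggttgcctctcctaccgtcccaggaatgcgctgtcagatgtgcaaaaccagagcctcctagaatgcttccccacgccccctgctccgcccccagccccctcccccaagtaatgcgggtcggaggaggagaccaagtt
Slc16a1, chr3:104638414-104638663, plus strand: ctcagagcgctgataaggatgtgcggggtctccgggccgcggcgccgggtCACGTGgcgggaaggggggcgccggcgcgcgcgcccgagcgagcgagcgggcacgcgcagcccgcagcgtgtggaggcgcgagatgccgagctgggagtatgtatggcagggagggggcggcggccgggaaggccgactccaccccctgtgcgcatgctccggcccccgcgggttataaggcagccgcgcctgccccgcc
Slc20a1, chr2:129198523-129198772, plus strand: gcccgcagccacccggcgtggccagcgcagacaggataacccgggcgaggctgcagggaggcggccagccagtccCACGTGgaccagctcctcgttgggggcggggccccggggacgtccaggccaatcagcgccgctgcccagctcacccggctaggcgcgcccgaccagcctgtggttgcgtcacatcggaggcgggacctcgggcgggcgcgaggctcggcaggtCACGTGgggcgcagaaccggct
Slc12a7, chr13:73763447-73763696, plus strand: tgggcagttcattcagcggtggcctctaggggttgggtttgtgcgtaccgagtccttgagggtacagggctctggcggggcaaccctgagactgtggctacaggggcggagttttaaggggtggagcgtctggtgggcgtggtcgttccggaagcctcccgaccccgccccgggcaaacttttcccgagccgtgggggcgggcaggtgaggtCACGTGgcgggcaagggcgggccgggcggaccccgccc

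The letters CACGTG were in 18 of the 142 member windows (12.7%). They were in 6.02% of all 32851 windows and 6.63% of the 21263 windows of protein-coding genes. The share in windows of the 7893 genes was not computed, so neither of these is matched for level. Those 18 members lay on both sides of vehicle, 6 above and 12 below at each time, with medians of -0.13, -0.07 and -0.13 close to those of all members. Of the 7893 genes, 57.4%, 43.7% and 48.2% were below vehicle. At 2.5 days they ran from -0.81 (Slc12a7) to 0.56 (Slc16a1). TGATGNAA was in 4 member windows (2.82%, against 3.45% of all) and AAGGTCA in 2 (1.41%, against 4.08%). Myc itself was at 7.79 in vehicle and 8.89, 8.88 and 8.96 after tamoxifen. Its part in the carrier values was not tested.

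**Figure D2:**
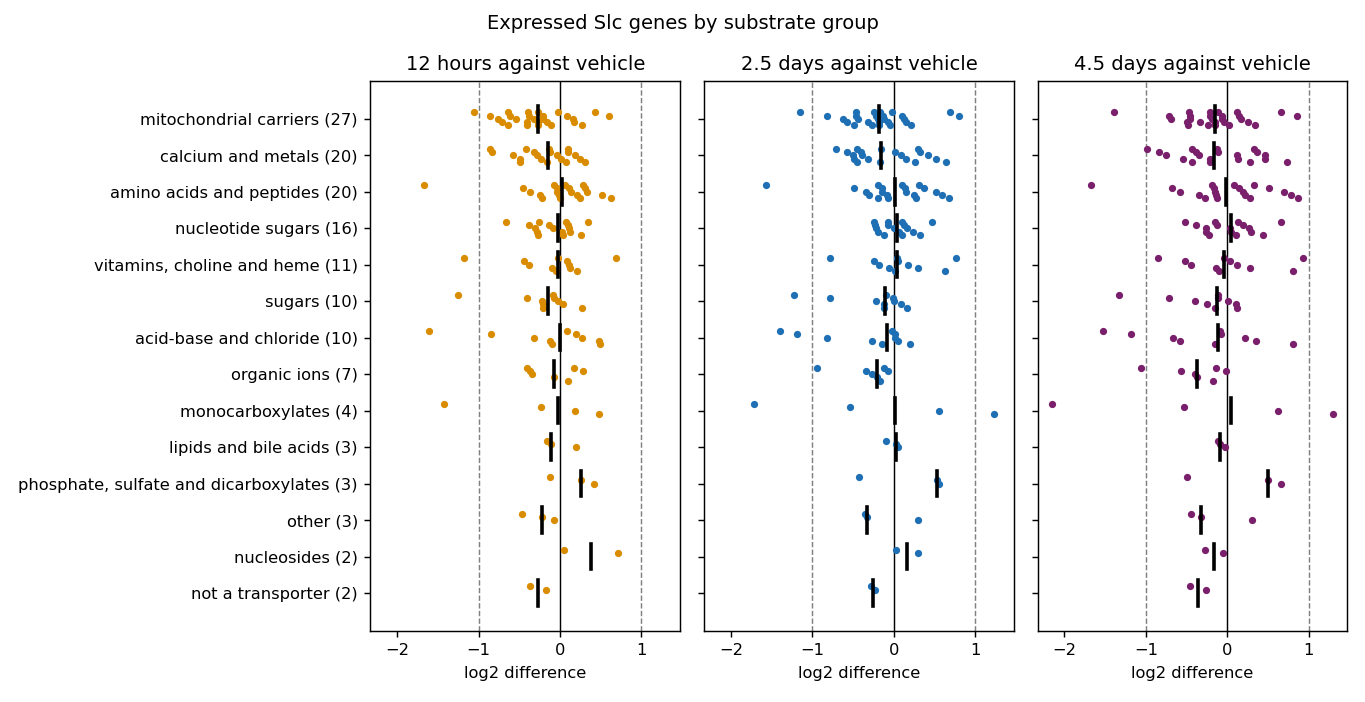
Log2 difference from vehicle (horizontal axis) of the expressed Slc genes by substrate group, with the number of genes in parentheses and 1 panel for each tamoxifen time. Each dot is a gene, offset vertically only for legibility, black bars are group medians and dashed lines mark 2-fold; most dots lie between the dashed lines, and mitochondrial carriers have medians of -0.27, -0.18 and -0.15.

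By substrate, the 27 mitochondrial carriers of family 25 were the most numerous group. They import ADP, phosphate and metabolites into the matrix and export ATP and biosynthetic precursors. Their median difference was -0.27 at 12 hours, -0.18 at 2.5 days and -0.15 at 4.5 days, beside -0.05, 0.05 and 0.02 over the 7893 genes. Below vehicle were 21, 21 and 19 of the 27 (77.8%, 77.8% and 70.4%), against 57.4%, 43.7% and 48.2% of the 7893. After subtracting the median of the 7893 genes the carriers' medians were -0.23, -0.23 and -0.17. Only Slc25a23 was past 2-fold at any time by the probe set used.

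Both adenine nucleotide translocators, which exchange ADP for ATP, were below vehicle. Slc25a4, which encodes ANT1, was at 12.23 in vehicle and 11.62, 11.61 and 11.77 after tamoxifen, differences of -0.62, -0.63 and -0.46. Slc25a5 (ANT2) was at 13.53 and differed by -0.21, -0.24 and -0.21. The phosphate carrier gene Slc25a3 was at 12.98 and differed by -0.32, -0.19 and -0.15.

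Carriers of redox and substrate shuttles lay in the same range. Slc25a39, which imports glutathione into the matrix, was at 12.96 in vehicle and 12.32, 12.50 and 12.49 after tamoxifen, differences of -0.64, -0.46 and -0.47. Slc25a11, the oxoglutarate-malate carrier, differed by -0.71, -0.49 and -0.45. Its partner in the malate-aspartate shuttle, Slc25a12, differed by -0.76, -0.31 and -0.34, and Slc25a13 by -0.38, -0.26 and -0.24. Slc25a51, the NAD carrier, differed by -0.54, -0.47 and -0.49. Slc25a35, of no settled substrate, differed by -0.86, -0.82 and -0.72 from a level of 7.90. That gene, too, reached the entry level on the vehicle array alone and could only be lower. Slc25a36, a pyrimidine nucleotide carrier, differed by -0.41, -0.58 and -0.69 on its brightest probe set and by -1.18, -1.11 and -1.43 on another.

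A few mitochondrial carriers lay above vehicle. Slc25a32, the folate carrier of the inner membrane, was at 6.87 in vehicle and 7.05, 7.67 and 7.53 after tamoxifen, differences of 0.18, 0.80 and 0.66. It entered through the 2 later arrays. Slc25a28, encoding the iron importer mitoferrin 2, was 0.60 above vehicle at 12 hours and 0.12 and 0.17 above it later. The citrate carrier gene Slc25a1 and the dicarboxylate carrier gene Slc25a10 stayed between -0.16 and 0.16. Of the pyruvate carrier, which is outside the Slc symbols, Mpc1 differed by -0.36, -0.55 and -0.61, and the outer membrane channel genes Vdac1 and Vdac2 stayed between -0.25 and 0.16.

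**Figure D3:**
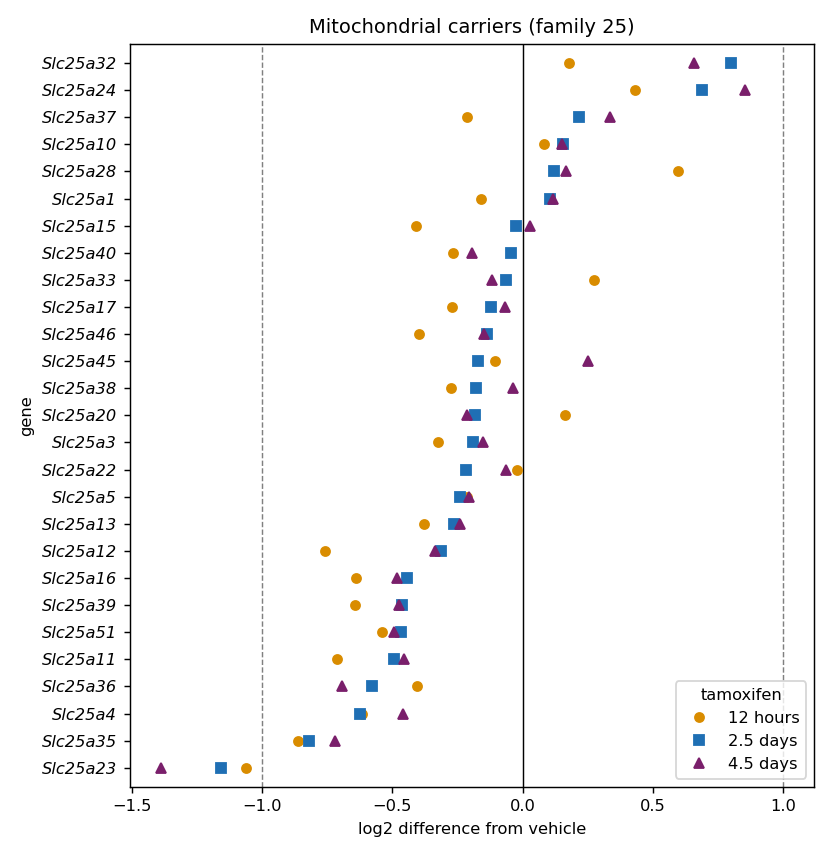
Log2 difference from vehicle (horizontal axis) of the 27 expressed family 25 genes, ordered by the 2.5-day value, with circles for 12 hours, squares for 2.5 days and triangles for 4.5 days of tamoxifen. Dashed lines mark 2-fold; Slc25a23 lies past the lower one at all 3 times and Slc25a32 and Slc25a24 have the highest values at 2.5 days, 0.80 and 0.69.

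The 20 amino acid and peptide carriers were centred on vehicle, with medians of 0.03, 0.01 and -0.02 and 10 members on each side of vehicle at each time. Apart from Slc7a8, no member was past 2-fold. Slc6a6, the taurine transporter, was at 10.61 in vehicle and 11.24, 11.30 and 11.31 after tamoxifen. All 3 tamoxifen arrays lay above vehicle, by 0.63, 0.69 and 0.70. Its next brightest probe set gave 0.50, 0.53 and 0.59, while its 2 dimmest, near the array median or below it, stayed between -0.21 and 0.06. Slc38a1, a sodium-coupled glutamine transporter, was at 8.67 in vehicle and 8.88, 9.27 and 9.45 after it, differences of 0.21, 0.60 and 0.78. Slc38a2, of the same family, was at 11.23 and stayed within 0.13 to 0.27 of vehicle.

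Among the remaining amino acid carriers, Slc7a1, the arginine and lysine transporter CAT1, was at 9.99 and differed by 0.25, 0.25 and 0.28. Its second probe set, at 8.77 in vehicle, gave larger differences of 0.52, 0.67 and 0.73. Slc7a6, a further partner of Slc3a2, differed by -0.03, 0.37 and 0.52, and its second probe set by -0.04, 0.73 and 0.66. Slc43a2, encoding the leucine carrier LAT4, was at 8.20 in vehicle and 8.32, 7.87 and 7.52 after tamoxifen, differences of 0.12, -0.33 and -0.68. Slc38a10 differed by -0.37, -0.48 and -0.58 from 10.23. The creatine transporter gene Slc6a8, the glycine transporter gene Slc6a9 and the lysosomal exporter genes Slc66a1 and Slc36a1 stayed between -0.30 and 0.32. Slc6a20a, a proline transporter gene, was 0.51 above vehicle at 12 hours and 0.31 and 0.09 later. Of 8 listed regulators of amino acid supply, Myc was past 2-fold above vehicle at each time, with differences of 1.09, 1.09 and 1.17. Over the 7893 genes, 1.1%, 3.59% and 4.14% were at least 2-fold higher. Atf4 stayed at 0.28, 0.06 and 0.01.

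**Figure D4:**
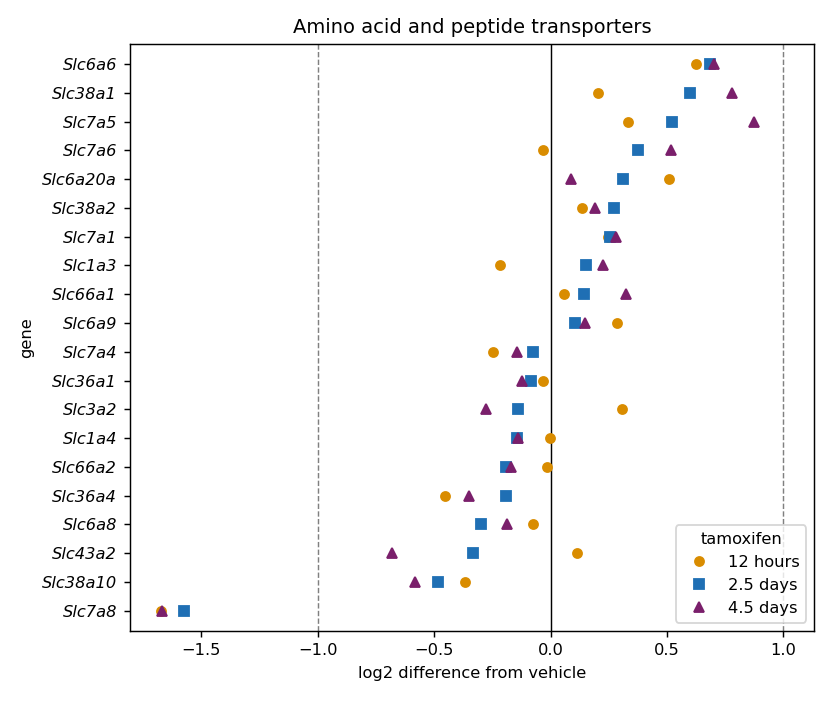
Log2 difference from vehicle (horizontal axis) of the 20 expressed amino acid and peptide carrier genes, ordered by the 2.5-day value, with circles for 12 hours, squares for 2.5 days and triangles for 4.5 days. Dashed lines mark 2-fold; Slc7a8 lies near -1.6 to -1.7 at each time, and Slc7a5 reaches 0.87 at 4.5 days.

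The 20 carriers of calcium and metals had medians of -0.15, -0.16 and -0.17, and none was past 2-fold. Zinc importers of family 39 (ZIP), which bring zinc into the cytosol, had a median of 0.06, 0.28 and 0.35 over 8 genes. Below vehicle were 37.5%, 25% and 25% of them, against 57.4%, 43.7% and 48.2% of the 7893 genes, whose medians were -0.05, 0.05 and 0.02. At 4.5 days 1 of the 8 was at least 0.5 above vehicle and 2 were at least 0.5 below. Slc39a10 was at 8.95 in vehicle and 9.05, 9.59 and 9.69 after tamoxifen, differences of 0.10, 0.64 and 0.74. Slc39a1 was at 10.05 and differed by 0.30, 0.30 and 0.33, and Slc39a4, the intestinal zinc importer, by 0.10, 0.52 and 0.46. Slc39a11 and Slc39a9 went the other way. Slc39a9 was at 9.21 and differed by -0.33, -0.45 and -0.54. Slc39a11 went from 11.30 in vehicle to 11.02, 10.81 and 10.55, differences of -0.29, -0.50 and -0.76. By the probe sets used, zinc exporters of family 30 (ZnT), 7 genes, had medians of -0.16, -0.15 and -0.13 and stayed between -0.58 and 0.32. The probe set used for Slc30a7 gave -0.24, -0.32 and -0.22. Its other one, at 8.26 in vehicle, had the opposite sign, at 0.06, 0.40 and 0.41. The difference between both families was not tested.

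Of the other metal carriers, the magnesium transporter gene Slc41a2 was at 9.02 in vehicle and 8.18, 8.31 and 8.03 after tamoxifen, differences of -0.83, -0.71 and -0.99, just short of 2-fold at 4.5 days. Slc41a3 differed by -0.49, -0.48 and -0.44. Slc31a1, the copper importer CTR1, was at 8.23 in vehicle and 7.37, 7.78 and 7.85 after tamoxifen. Its 12-hour value, -0.86, was the lowest of the 3 on this probe set. Its other probe set, at 7.69 in vehicle, gave -0.34, -0.45 and -0.38, with the 12-hour value nearest vehicle. Slc24a3, a potassium-dependent sodium-calcium exchanger gene, differed by -0.49, -0.57 and -0.84. Both Slc41a3 and Slc24a3 reached the entry level on the vehicle array alone and could only be lower.

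**Figure D5:**
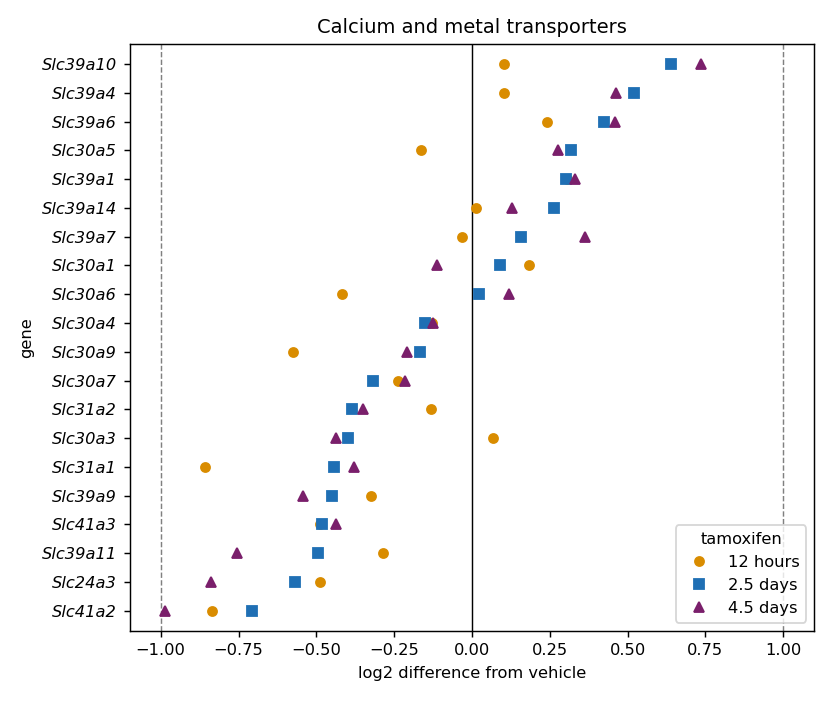
Log2 difference from vehicle (horizontal axis) of the 20 expressed calcium and metal carrier genes, ordered by the 2.5-day value, with circles for 12 hours, squares for 2.5 days and triangles for 4.5 days. Dashed lines mark 2-fold and no gene lies past them; Slc39a10 has the highest 2.5-day value, 0.64, and Slc41a2 the lowest, -0.71.

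Of 18 listed gastric carriers, members or not, 16 were measured. None was past 2-fold higher, and 2, 3 and 3 were past 2-fold lower, beside 2.13%, 2.37% and 3.33% of the 7893 genes. These were Slc26a6 at each time, Slc5a5 at the later times, and Slc5a8 at each time. Slc5a8 is no member, and its level of 4.28 in vehicle and 2.85, 2.67 and 2.70 after tamoxifen lay below the array median throughout. The 10 acid-base and chloride carriers had medians of 0.00, -0.08 and -0.12. Besides Slc26a6 and Slc5a5, the lowest values at 2.5 and 4.5 days were those of Slc12a7, the potassium-chloride cotransporter KCC4. It was at 10.00 in vehicle and 9.68, 9.19 and 9.34 after tamoxifen, differences of -0.32, -0.81 and -0.66. Slc12a2, the sodium-potassium-chloride cotransporter NKCC1, was at 12.29 and differed by 0.27, -0.02 and -0.07 on its brightest probe set. Its others, at 10.44 and 9.83 in vehicle, gave 0.38, -0.29 and -0.46, and 0.66, 0.13 and -0.0007. The sodium-bicarbonate cotransporter gene Slc4a4 was at 8.87 in vehicle and 9.06, 8.73 and 8.29 after tamoxifen, a difference of -0.58 at the last time.

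The sodium-proton exchangers did not share a direction. Slc9a3 (NHE3) was at 8.96 in vehicle and 9.45, 9.16 and 9.76 after tamoxifen, differences of 0.50, 0.20 and 0.81. Slc9a2 (NHE2) stayed at 0.09, 0.02 and -0.15. Their scaffold proteins, whose symbols begin with Slc though they carry nothing, are Slc9a3r1 and Slc9a3r2. Slc9a3r1 differed by -0.37, -0.28 and -0.26 from 11.54, and Slc9a3r2 by -0.17, -0.23 and -0.46 from 8.63. The sodium pump supplies the gradient for these exchangers, and its beta subunit genes Atp1b1 and Atp1b3 stayed between 0.00 and 0.30.

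The 10 sugar carriers had medians of -0.15, -0.10 and -0.13, and apart from Slc2a4 none was past 2-fold. Slc2a1 encodes GLUT1, the basal glucose transporter. It was at 10.78 in vehicle and 10.58, 10.87 and 10.90 after tamoxifen, differences of -0.20, 0.09 and 0.12, and its 2 other probe sets gave 0.19 and 0.15 at 2.5 days. Slc2a10 was at 8.96 in vehicle and 8.56, 8.18 and 8.25 after it, differences of -0.40, -0.79 and -0.72. The SWEET family gene Slc50a1 differed by -0.23, -0.21 and -0.40, and Slc45a3 stayed between -0.12 and -0.07.

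The 16 members of family 35, grouped under nucleotide sugars by family number, had medians near vehicle. This family includes carriers that supply the Golgi and ER with activated sugars, though not every member is an established one. The medians were -0.03, 0.04 and 0.04, and none of the genes was past 2-fold. Slc35c1, the GDP-fucose carrier, was at 9.03 in vehicle and 9.07, 9.50 and 9.68 after tamoxifen, differences of 0.04, 0.47 and 0.66. Slc35g1 went lower, from 10.76 to 10.10, 10.57 and 10.25, differences of -0.66, -0.19 and -0.51. Slc35a3, the carrier of UDP-N-acetylglucosamine, was at 11.25 and stayed at -0.27, 0.07 and 0.11. Slc35d1 differed by 0.26, 0.33 and 0.44, and the CMP-sialic acid carrier gene Slc35a1 and the UDP-galactose carrier gene Slc35a2 stayed between -0.38 and 0.11. The probe sets of Slc35a2 above the array median lay on both sides of vehicle, from -0.24 to 0.22 at 2.5 days.

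The 11 carriers of vitamins, choline and heme had medians of -0.02, 0.05 and -0.04. Slc19a1, the reduced folate carrier of the plasma membrane, was at 7.22 in vehicle and 7.33, 7.99 and 8.14 after tamoxifen. Its level on the 2 later arrays lay above both others, with differences of 0.12, 0.77 and 0.93, and a second probe set gave 0.33, 0.62 and 0.87. Slc19a1 and the mitochondrial folate carrier gene Slc25a32 both lay below 7.4 in vehicle and reached it later, so both had to differ to be members. The cell cycle markers, 3 of 3 measured, had summed levels of 25.45 in vehicle and 24.23, 30.17 and 30.26 after tamoxifen, and their part in these values was not tested. The thiamine carrier gene Slc19a2 differed by -0.04, 0.30 and 0.12.

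Choline carriers other than Slc44a3 stayed within 2-fold. Slc44a1 was at 10.60 and stayed within 0.03 of vehicle, Slc44a4 was at 9.97 and differed by 0.11, 0.18 and 0.29, and Slc44a2 was at 10.25 and differed by -0.38, -0.24 and -0.45, while the dimmest of its 3 probe sets gave 0.12, 0.01 and 0.01. Slc23a3, of the ascorbate family, was at 6.67 in vehicle and 7.35, 7.30 and 7.47 after tamoxifen, and entered through the 4.5-day array. Flvcr1, a heme and choline transporter gene outside the Slc symbols, was at 7.21 in vehicle and differed by 0.24, 1.08 and 1.25. It was on a list of 13 other major facilitator carriers, all measured, of which 0, 1 and 2 were past 2-fold higher and 1 lower at each time. Of the 7893 genes, 1.1%, 3.59% and 4.14% were higher and 2.13%, 2.37% and 3.33% lower. The list, unlike those genes, was not chosen by level.

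By the probe sets used, the 7 carriers of organic ions were all below vehicle at 2.5 and 4.5 days. Of the 7893 genes, 43.7% and 48.2% were. The medians of the 7 were -0.07, -0.20 and -0.37 over the 3 times. Slco3a1 could only be lower by the entry rule. Besides Slco3a1, Slco2a1, the prostaglandin transporter, was at 10.25 in vehicle and 10.42, 10.08 and 9.86 after tamoxifen, differences of 0.17, -0.17 and -0.39. Slco2b1 differed by 0.28, -0.11 and -0.57 and Slco4a1 by -0.40, -0.27 and -0.01. At 4.5 days the next brightest probe sets of Slco2a1, Slco2b1 and Slco4a1 gave -0.71, -0.16 and 0.05. For Slc22a18 the probe set used gave -0.37 at that time and its other one -0.06. Slc22a23 stayed between -0.17 and 0.10. Endothelial markers, 3 of 3 measured, had summed levels of 21.20 in vehicle and 20.82, 19.95 and 20.04 after tamoxifen, and their part was not tested.

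Phosphate carriers of family 20 lay above vehicle. Slc20a1 (PiT1) was at 7.97 in vehicle and 8.39, 8.51 and 8.63 after tamoxifen, and Slc20a2 (PiT2) was at 7.08 and then 7.34, 7.64 and 7.58. The differences were 0.41, 0.54 and 0.66 for the first and 0.26, 0.56 and 0.50 for the second. Slc20a2 entered through the 2.5-day and 4.5-day arrays, so it had to lie above vehicle to be a member. Slc17a5, the lysosomal sialic acid exporter, differed by -0.12, -0.42 and -0.50. Of the nucleoside group, the purine base carrier gene Slc43a3 was at 7.21 in vehicle and 7.92, 7.50 and 7.15 after tamoxifen. It was thus highest at 12 hours, with a difference of 0.72 that was the largest of any member above vehicle at that time. Slc43a3 entered through the 12-hour and 2.5-day arrays, so it had to lie above vehicle to be a member. Slc29a3 differed by 0.05, 0.03 and -0.28.

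The remaining members stayed well within 2-fold. Slc33a1, the acetyl-CoA carrier of the ER, was at 9.89 and differed by -0.46, -0.35 and -0.32. The inositol carrier gene Slc5a3 differed by -0.07, 0.30 and 0.31 and the lipocalin receptor gene Slc22a17 by -0.22, -0.33 and -0.44. Slc27a4, Slc10a7 and Slc10a3 of the lipid and bile acid families stayed between -0.16 and 0.20, and Slc18b1, a vesicular polyamine carrier gene, between 0.03 and 0.24.

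Between tamoxifen arrays no member was past 2-fold in either direction. Of the 7893 genes, 2.66% were higher and 0.836% lower from 12 hours to 2.5 days, and 0.203% each way from 2.5 to 4.5 days. In the first step the highest differences were those of Slc16a6 (0.75), Slc19a1 (0.65), Slc25a32 (0.62), Slc35a4 (0.54) and Slc39a10 (0.54). The lowest were Slco3a1 (-0.58), Slc5a5 (-0.55), Slc12a7 (-0.49), Slc25a28 (-0.48) and Slc30a3 (-0.47). In the second step Slc9a3 (0.60), Slc25a45 (0.42) and Slc7a5 (0.35) were highest, and Slco2b1 (-0.45), Slc16a7 (-0.44) and Slc4a4 (-0.44) lowest. Both rankings are by the probe sets used. The next brightest one of Slco2b1 was at 7.15 at 2.5 days and 7.05 at 4.5 days. That of Slc4a4 was at 7.17 and 6.91. The acinar and squamous markers differed most on the 12-hour array, which enters the first step.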

How the data were processed

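Expression was measured on 4 Affymetrix mouse arrays, each of corpus RNA pooled from 3 mice. The authors' deposited table holds a log2 value for each of 45101 probe sets. Per the submitters' processing notes, Partek and RMA were used, with no version stated. RMA equalises the distributions of the arrays, which hides any change common to most genes, and differences of dim and very bright genes are compressed. The log base was inferred from the range of values. Genes were named from the platform annotation, and probe sets with several symbols were not used. Control probe sets (64) were left out.

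Log2 differences were taken per gene with pandas 2.3.3 in Python 3.11.15, and counted at or past 2-fold. With 1 array a group there is no test, so counts and medians stand beside the same over 7893 genes chosen by the same level rule. The counting code was checked with planted changes, which gives no error for the counts. Members were grouped by family number and known substrate. Members, groups, lists and the named-gene rule were chosen with earlier results of these data known. Named were members past 2-fold, the 5 largest differences each way between tamoxifen arrays, the 3 brightest and the 3 most different members of each substrate group, members next to the entry level, and listed gastric carriers. Further members and the partners named beside them were picked after their values were seen. The number of arrays limits the precision. Promoter windows came from RefSeq.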

Additional observations from a re-analysis of the deposited data

How the results depend on the processing

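Counts of members past 2-fold depended mostly on where the entry level and the fold were set. With a fold of 1.5, 4, 8 and 13 of the 139 members were higher at the 3 times in order, and 16, 13 and 16 lower. With 7.4 required on all 4 arrays, 3 of 111 members were lower at each time and 0 higher at 2.5 and at 4.5 days. Slc7a8, Slc26a6, Slc25a23, Slco3a1 and Slc16a6 then drop out by construction. With the array median as entry level, 1, 2 and 2 of 229 were higher. The shares over all genes were not computed at these settings, so these counts cannot be set against them. With the second probe set where it was bright enough, 2 were higher at 4.5 days. No other alternative moved a count by over 1.5 times, and the medians ran from -0.09 to -0.03, -0.14 to -0.07 and -0.14 to -0.07 over all alternatives at the 3 times. Slc2a4 was within 2-fold at all 3 times by its second probe set and at 12 hours by the mean of both, -0.91. Slc5a5 was within it by either at 2.5 and 4.5 days. The alternatives chosen after seeing the data, which left out the non-transporters or made the choices without the 12-hour array, were among these. No paired analysis was possible because each group is 1 array. With 1 array a group, no difference can be set against the spread between mice.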
